A study of Mus musculus with 39 samples.

Results

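The clustered protocadherins were taken as every gene row of the nuclear RNA-seq tables whose symbol starts with Pcdha, Pcdhb or Pcdhg, followed by a digit or a letter from a to c. This rule uses names alone, and it found 59 genes among the 24421 of the tables, 15 in the alpha cluster, 22 in the beta cluster and 22 in the gamma cluster. On mouse chromosome 18 (mm10) these clusters lie at chr18:36930285-37188897, chr18:37264998-37521419 and chr18:37661775-37841873, and all members are read from the plus strand.

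Clustered protocadherins are cadherin-like adhesion proteins of neurons that bind the same isoform on a neighbouring membrane and so allow a neurite to recognise itself. In the alpha and gamma clusters each isoform has its own promoter and its own large first exon, which is spliced to constant exons that all isoforms of the cluster share, whereas a beta isoform is a single exon. The alternate isoforms are chosen by chance in each neuron, with CTCF and cohesin joining the chosen promoters to distant enhancers, while the C-type isoforms at the ends of the alpha and gamma clusters are used more evenly.

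Nuclei came from the neocortex of male and female Arc-creERT2(TG/WT) mice, 13 to 16 weeks old, that also carried 1 or both copies of the Sun1-sfGFP-Myc reporter at R26 under CAG (M/WT or M/M). Both techniques used this genotype and the same treatment: tamoxifen was given 5 h before a social interaction test, and the animals were sacrificed on the third day after it. The Arc promoter drives CreERT2, so the green (sfGFP+) nuclei are those of cells in which that promoter was active around the tamoxifen dose, and no unlabelled nuclei or other control group enters these comparisons. The question was whether the way of collecting the nuclei, fluorescence-activated sorting (FANS) or capture on anti-GFP beads (INTACT), changes what is measured in them.

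RNA-seq was measured in 31 libraries of 10000 nuclei in 3 batches, with 4 FANS and 4 INTACT libraries in batch 1, 7 and 4 in batch 2, and 7 and 5 in batch 3. ATAC-seq, which reports open chromatin as peaks, was measured in 3 libraries per technique of 50000 nuclei each. The RNA libraries held 4205665 to 11028713 reads on genes, of which 5489 to 9901 lay on the members, and 55 or 56 of the 59 members had at least 1 read in each library. In batch 1 the INTACT libraries were deeper, with 8621143 to 11028713 reads on genes against 4853224 to 6066759 in FANS. The excitatory neuron markers of a fixed list were present in every batch, none of the 10 being at 0 in any library. The 10 astrocyte markers were not at 0 in any library either, so presence of markers alone does not tell these cell types apart.

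Some isoforms could not be seen in these counts. Reads over the constant exons overlap several annotated genes at once. How the counting treated such reads is not given in the sources used here, and the levels per kb below take them as not counted for any gene, so that the alpha and gamma values would rest almost entirely on the first exons. Pcdha4, Pcdha6 and Pcdha7 were listed at 0 in all 31 libraries. Their first exons coincide with those of Gm37013, Gm38666 and Pcdha7-g, annotated genes that join an alpha first exon to the gamma constant exons, and Pcdha4 and Pcdha7 keep 0 countable bases. Pcdha7-g, which the rule also takes as a member, keeps 9 countable bases and was listed at 1.03 to 17.49. The remaining 55 members, 11 alpha, 22 beta and 22 gamma, had a countable first exon, and levels are compared among those.

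The first exons are also similar to one another, which limits unique alignment. Of the 50-base windows in a first exon, 73.5 to 89.8% occur at 1 place in the genome for the alpha alternate isoforms and 81.9 to 97.3% for the gamma B isoforms. The beta isoforms reached 88.0 to 100%, the gamma A isoforms 95.7 to 100% and all 5 C-type isoforms 100%. Levels of the alpha and gamma B isoforms may therefore be understated relative to the C-type isoforms. Unspliced transcripts of an upstream isoform run across the first exons of the isoforms after it, and in nuclear RNA these reads cannot be told apart from those of the downstream promoters. The strand setting of the counting is likewise not given in the sources used here.

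Per kb of countable exon, the C-type isoforms Pcdhgc5 and Pcdhac2 stood above the others in every batch. Levels are given as normalized count per kb of countable exon (a read count divided by a library size factor and by the length that could be counted). Pcdhgc5, the last isoform of the gamma cluster (first exon chr18:37819546-37822134), was at 193 ± 19.96 in batch 1 (SD, n = 8 libraries), 186 ± 25.9 in batch 2 (n = 11) and 144 ± 22.1 in batch 3 (n = 12). Pcdhac2, the last isoform of the alpha cluster (first exon chr18:37143678-37146530), was at 130 ± 15.1, 116 ± 14.0 and 100.1 ± 11.7 in the same batches. These were ranks 1 and 2 of 55 in all 3 batches. The rank of Pcdhac2 depends on the length used. Divided by all annotated exon bases, constant exons included, Pcdhgc5 still ranked 1 (106, 102 and 79.0) but Pcdhac2, at 64.7, 57.9 and 49.9, ranked 3, 5 and 7 and lay under Pcdhb17 (74.8, 70.4 and 65.5). The other C-type isoforms were lower, with Pcdhac1 at 31.1, 31.3 and 40.0, Pcdhgc3 at 23.7, 24.5 and 29.7, and Pcdhgc4 at 16.4, 18.5 and 17.9 per kb. The C-type isoforms thus held both the highest levels and some of the lowest levels of the gamma cluster.

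By the median of all its measurable isoforms, C-type included, the gamma cluster was highest and the beta cluster lowest per kb of countable exon. The median level per kb was 57.5, 57.8 and 63.1 in the gamma cluster in batches 1, 2 and 3, against 38.8, 43.2 and 43.7 in the alpha cluster and 30.8, 28.6 and 25.96 in the beta cluster. Per kb of all annotated exons the gamma cluster was still highest (33.0, 34.2 and 35.1), but the alpha cluster (17.6, 19.6 and 19.9) lay under the beta cluster, whose values do not change. Pcdhga12 (79.8, 75.7 and 77.9) and Pcdhga8 (72.5, 71.5 and 82.4) led the gamma alternates. Pcdhb17 (74.8, 70.4 and 65.5), Pcdhb16 (63.1, 58.2 and 55.3) and Pcdhb20 (60.8, 59.8 and 54.2) led the beta isoforms by mean rank over the batches. In batch 3 Pcdhb19 (54.3) lay just above Pcdhb20. Pcdha12 (57.8, 63.9 and 69.9) and Pcdha5 (55.4, 58.3 and 56.9) led the alpha alternates. Pcdhb1 was nearly silent, at 0.751, 0.795 and 0.631 per kb, and was too low to be tested.

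**Figure D1:**
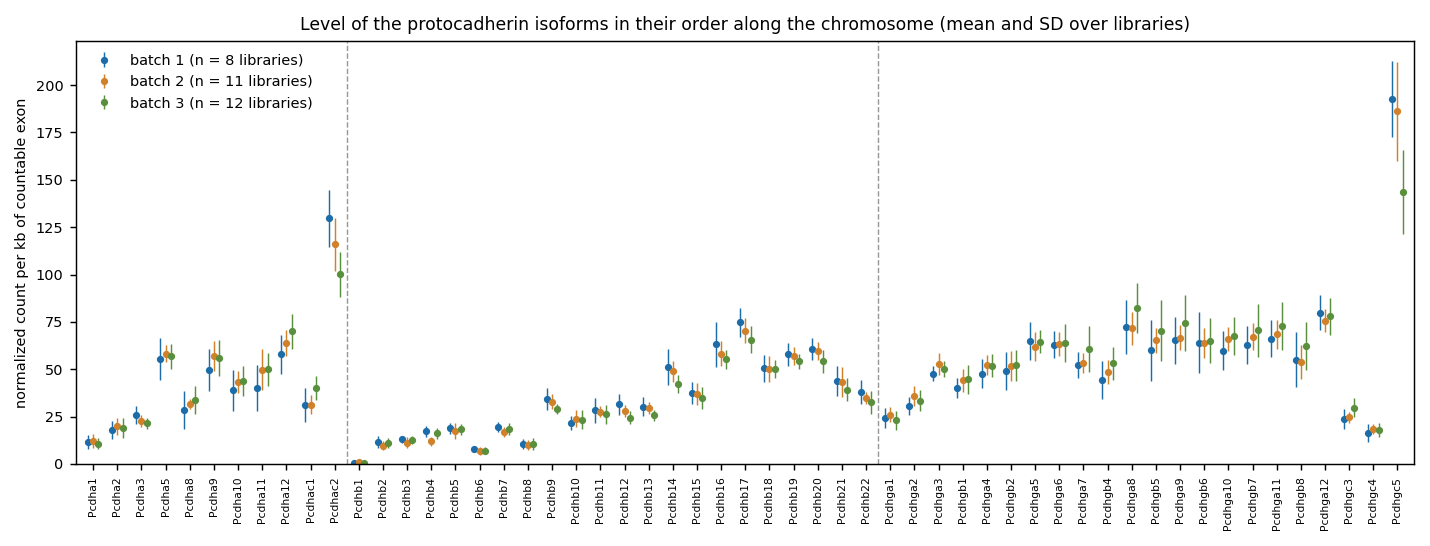
Normalized count per kb of countable exon (y axis) for each of the 55 measurable isoforms, in chromosomal order (x axis) with dashed lines between the alpha, beta and gamma clusters; points are means and bars SD over the libraries of a batch. Pcdhac2 and Pcdhgc5 stand above all others, and the alternate isoforms at the left end of each cluster are lower than most further right, without a steady rise.

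The levels of the alternate isoforms followed a rank trend in the direction of transcription, with exceptions such as Pcdhb22, the last beta isoform, which at 37.9 per kb in batch 1 lay under Pcdhb17. Over the alternate isoforms, the Spearman correlation between level per kb and position was 0.78 in each batch in the alpha cluster (n = 9 isoforms), 0.87, 0.88 and 0.87 in the beta cluster (n = 22) and 0.72, 0.81 and 0.82 in the gamma cluster (n = 19). With the C-type isoforms included it was 0.74, 0.69 and 0.74 in the alpha cluster (n = 11) and 0.37, 0.43 and 0.45 in the gamma cluster (n = 22). The isoforms share libraries, and unspliced upstream transcripts may add to downstream first exons, which was not measured, so these values describe the pattern only. The first beta isoforms show the low end, with Pcdhb2 at 11.8, 9.73 and 11.1 and Pcdhb6 at 7.90, 6.86 and 7.05 per kb. In the alpha cluster the first isoform, Pcdha1, was at 11.7, 12.2 and 10.7.

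The order of the isoforms was nearly the same in the 3 batches. Spearman correlations of the 55 levels between batches were 0.98, 0.97 and 0.99, over isoforms that share exon lengths and sequence. Neighbours in the order were rarely separable. Of the 54 neighbouring pairs, 3 in batch 1 and 5 in each of the other batches differed by more than the larger of their SDs. The gap between Pcdhgc5 and Pcdhac2 was among those in each batch. For a single member, the median coefficient of variation over libraries of 1 technique was 11.2 to 19.1%, and the median SD was 1.18 to 1.87 times that of counting alone, highest in the FANS libraries of batch 3. In shares of the summed member counts, the gamma cluster took 44.5 to 51.3%, the beta cluster 31.5 to 37.2% and the alpha cluster 15.4 to 19.8% of each library.

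In batch 1 most isoforms were lower in INTACT-nuclei than in FANS-nuclei. Of the 55 members tested, 48 had a lower mean in INTACT, and the median difference (log2 INTACT minus FANS) was -0.30, against 0.01 and 49.1% lower over all genes tested. The 55 tested here include Pcdha7-g and leave out Pcdhb1, so they are not the same 55 as those compared by level. At an adjusted p under 0.05 and at least 1.5-fold (limma), 4 members fell in INTACT, Pcdha8, Pcdha11, Pcdhac1 and Pcdhgb8, and none rose. Leaving out 1 library gave 4 to 7 members, with 7 without FANS replicate 1 and without INTACT replicate 1. Among all 15114 genes tested, 3.94% fell and 4.03% rose by that rule. Without the demand on size, 23 members were lower and 3 higher, beside 17.5% and 18.6% of all genes. At an unadjusted p under 0.05, 32 members were lower and 3 higher, beside 21.6% and 22.9% of all genes. In these bulk samples fewer cells of a type and less RNA per cell cannot be told apart, and depth, which differed between the techniques in batch 1, was not tested as a part of this result.

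The difference spread over all clusters, with the alpha alternates and gamma B isoforms lowest. All 10 tested alpha alternates, the low Pcdha7-g among them, were lower in INTACT (median -0.46, 5 past the adjusted p alone), as were all 7 gamma B isoforms (median -0.51, 6 past it). Of the 21 beta isoforms tested 18 were lower (median -0.24), with Pcdhb11, Pcdhb14, Pcdhb16, Pcdhb18 and Pcdhb21 past the adjusted p alone. Of the 12 gamma A isoforms 10 were lower (median -0.26), 6 of them past it. Single-exon genes in general, to which the beta isoforms belong, had a median of -0.04 over 849 genes. The technique groups of 15 members did not overlap with INTACT lower and of 2 members with INTACT higher, beside 16.5% and 17.1% of all genes.

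**Figure D2:**
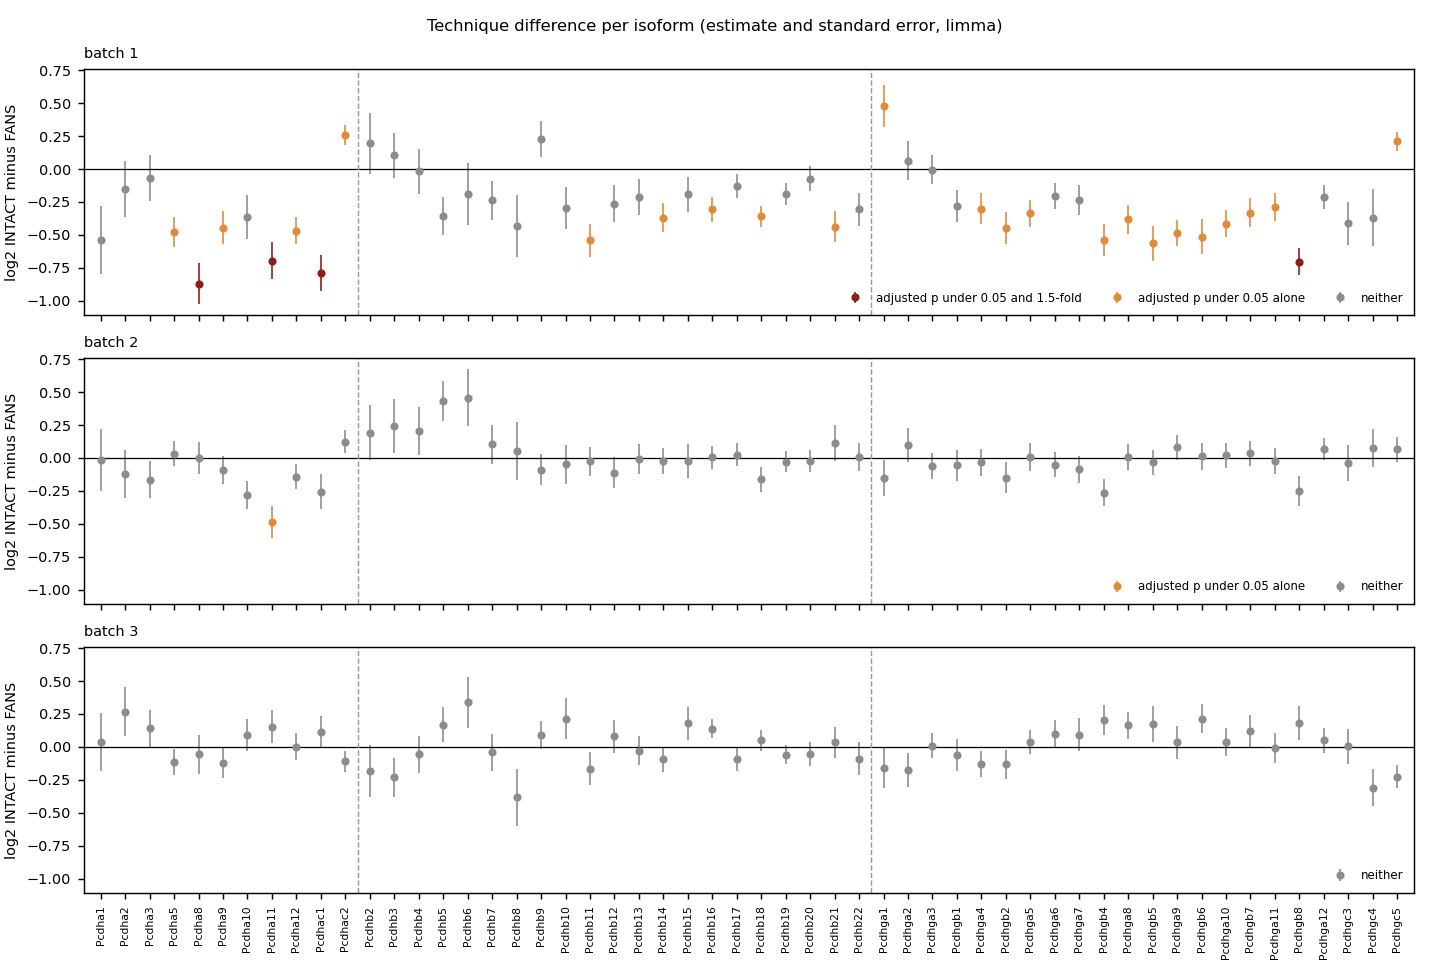
Difference between techniques (y axis, log2 INTACT minus FANS, estimate and standard error from limma) for the 54 tested isoforms with a countable first exon, in chromosomal order (x axis), with 1 panel per batch. In batch 1 most points lie under 0 and 4 reach an adjusted p under 0.05 with at least 1.5-fold, whereas in batches 2 and 3 the points lie around 0.

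Pcdha8, an alternate alpha isoform (first exon chr18:36992467-36994848), had normalized counts of 73.3, 92.0, 104.9 and 84.1 in the FANS libraries of batch 1 and 54.5, 43.6, 51.1 and 42.3 in the INTACT libraries. Every INTACT library was under every FANS library, a 1.83-fold lower mean level (log2 difference -0.87, SE 0.15, adjusted p 8.1e-05). Pcdha11, another alternate alpha isoform (first exon chr18:37010858-37013251), had 126.0, 110.3, 144.4 and 97.8 in FANS and 80.5, 84.9, 65.1 and 62.8 in INTACT. Its groups did not overlap either, and it was 1.62-fold lower (log2 difference -0.70, SE 0.14, adjusted p 0.00036).

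Pcdhac1, a C-type isoform of the alpha cluster (first exon chr18:37090136-37092571), had 100.3, 89.5, 98.1 and 96.3 in FANS and 58.8, 46.7, 57.8 and 58.2 in INTACT. The gap between the groups was wider than the spread within either, and the level was 1.73-fold lower (log2 difference -0.79, SE 0.14, adjusted p 6.7e-05). Pcdhgb8, the last gamma B isoform (first exon chr18:37761801-37764299), had 165.9, 165.5, 171.7 and 180.3 in FANS and 102.1, 110.1, 110.9 and 95.8 in INTACT. It was 1.63-fold lower, with the smallest adjusted p of the members (log2 difference -0.70, SE 0.10, adjusted p 6.7e-06). These counts rest on 55 to 167 reads per library.

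Pcdhac2, Pcdhgc5 and Pcdhga1 moved the other way in batch 1. Pcdhac2 had 330.6, 311.4, 357.0 and 348.4 in FANS and 404.9, 360.2, 411.1 and 436.3 in INTACT. All INTACT libraries lay above all FANS libraries, by 1.19-fold (log2 difference 0.26, SE 0.07, adjusted p 0.0080). Pcdhgc5 had 473.3, 503.9, 395.2 and 482.9 in FANS and 555.4, 502.5, 553.9 and 526.8 in INTACT. Here 1 INTACT library was just under the highest FANS library, and the mean was 1.16-fold higher (log2 difference 0.21, SE 0.07, adjusted p 0.024). Pcdhga1, the first gamma isoform, had 59.2, 58.9, 47.7 and 42.8 in FANS and 65.8, 64.2, 77.7 and 82.6 in INTACT, 1.39-fold higher without overlap (adjusted p 0.021). None of the 3 reached 1.5-fold.

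Pcdhgc3 and Pcdhgc4, the remaining C-type isoforms, did not pass the test in batch 1. Pcdhgc3 had 63.0, 83.4, 57.2 and 74.9 in FANS and 59.7, 52.0, 53.8 and 42.3 in INTACT (log2 difference -0.41, SE 0.16, adjusted p 0.052). Pcdhgc4 had 37.3, 51.5, 64.0 and 61.1 in FANS and 61.4, 34.4, 43.8 and 28.4 in INTACT (log2 difference -0.37, SE 0.22, adjusted p 0.19). With Pcdhac2 and Pcdhgc5 higher and most others lower, the 5 C-type isoforms took 15.4 to 17.4% of the summed member counts in INTACT and 12.5 to 13.5% in FANS, without overlap. In batch 2 these shares were 13.7 to 14.9% and 11.8 to 15.0%, and in batch 3 they were 11.2 to 12.3% and 10.5 to 14.8%, overlapping in both.

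**Figure D3:**
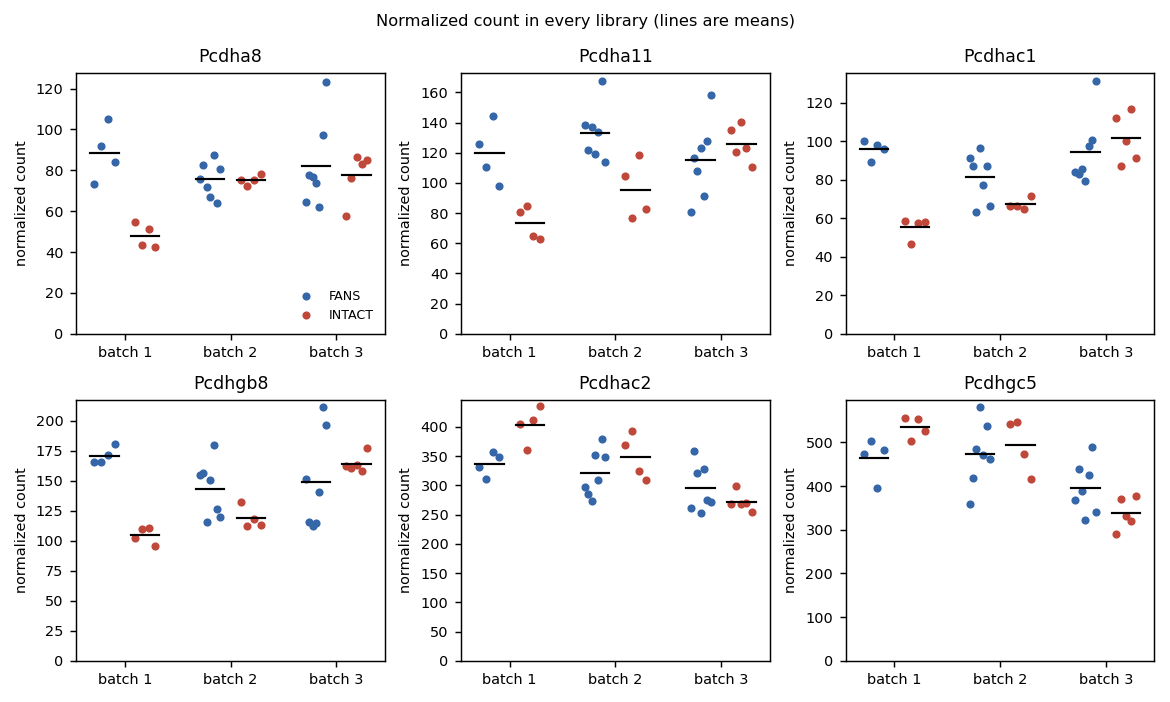
Normalized count (y axis, from 0) of 6 isoforms in every library of the 3 batches (x axis), FANS in blue and INTACT in red, with lines at the group means. Pcdha8, Pcdha11, Pcdhac1 and Pcdhgb8 separate the techniques in batch 1 with INTACT lower, Pcdhac2 separates them with INTACT higher, and in batches 2 and 3 the groups overlap.

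In batch 2 no member passed the same rule in either direction (limma, with 0 also by edgeR and DESeq2 on the whole reads), beside 0.0336% of 14876 genes lower and 0.0941% higher. At an unadjusted p under 0.05, 5 members were lower and 2 higher, beside 6.58% and 8.66% of all genes. The median difference was -0.02, with 32 of 55 members lower, beside 50.2% of all genes. Pcdha11 passed the adjusted p alone, as 1 lower member beside 0.309% of all genes, and 0 members passed it with INTACT higher, beside 0.834%. No member had groups without overlap, beside 1.4% of all genes lower and 1.59% higher. It had 113.7 to 167.5 (median 133.8) in the 7 FANS libraries and 104.7, 76.7, 118.3 and 82.5 in INTACT (log2 difference -0.48, SE 0.12, adjusted p 0.043). The groups overlapped by 1 INTACT library. Of the 12 tested alpha cluster members 10 had a lower mean in INTACT, beside 50.2% of all genes. The 10 include Pcdha7-g, which was listed at only 2.29 to 13.38 in this batch.

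The other members called in batch 1 had smaller differences in batch 2. They were picked by their batch 1 values, which by itself favours smaller values elsewhere. In the interaction test given below, the change between these batches passed for Pcdha8 (limma adjusted p 0.0077). It did not pass for Pcdhac1 (0.081) or Pcdhgb8 (0.15). Pcdha8 had 64.1 to 87.5 (median 75.6) in FANS and 75.2, 72.1, 75.1 and 78.1 in INTACT, with a log2 difference of 0.00 (SE 0.12). Pcdhac1 had 63.1 to 96.5 (median 87.1) in FANS and 66.2, 66.4, 64.8 and 71.5 in INTACT (log2 difference -0.25, SE 0.13, adjusted p 0.35). Pcdhgb8 had 115.5 to 180.1 (median 150.4) in FANS and 132.4, 112.2, 118.3 and 113.3 in INTACT (log2 difference -0.25, SE 0.11, adjusted p 0.27). The INTACT libraries lay within the FANS range, apart from 2 of Pcdhgb8 just under it.

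In batch 3 no member passed the rule in either direction (limma, with 0 also by edgeR and DESeq2), beside 0.346% of 14440 genes lower and 0.0139% higher. At an unadjusted p under 0.05, 2 members were lower and 0 higher, beside 6.46% and 7.29% of all genes, and the median difference was 0.01. By the adjusted p alone the count was also 0, beside 0.519% of all genes lower and 1.18% higher, and 0 members had groups without overlap, beside 0.589% and 0.997%. Pcdhac1 had 79.2 to 131.2 (median 85.7) in FANS and 112.2, 87.4, 100.3, 117.0 and 91.3 in INTACT. Pcdhgb8 had 112.5 to 211.5 (median 140.5) in FANS and 162.6, 160.4, 163.5, 158.1 and 177.6 in INTACT. Both INTACT groups lay inside the FANS range. Pcdha8 had 61.9 to 123.4 (median 76.8) in FANS and 57.6, 76.1, 86.3, 83.2 and 85.2 in INTACT. Pcdha11 had 80.5 to 158.4 (median 116.8) in FANS and 134.8, 120.3, 140.4, 123.2 and 110.6 in INTACT. Pcdhgc5 had 323.1 to 490.6 (median 388.3) in FANS and 289.2, 370.2, 332.0, 320.3 and 376.5 in INTACT (log2 difference -0.22, SE 0.09, adjusted p 0.22), the opposite sign to batch 1.

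FANS replicates 6 and 7 of batch 3 stood apart in these genes. Their summed member levels were 8074 and 8644 normalized counts, against 6444 to 6825 in the other 5 FANS libraries and 6990 to 7328 in INTACT. With both left out, an alternative chosen after seeing the data, the median difference became 0.12 and 38 of 55 members had a higher mean in INTACT. Pcdhga8 (0.32), Pcdhgb5 (0.38), Pcdhgb6 (0.38) and Pcdhgb8 (0.38) then passed the adjusted p alone with INTACT higher, beside 2.27% of all genes, and no member reached 1.5-fold.

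The technique difference was also compared between batches. In an interaction test over 14332 genes, 4 of 55 members differed between batches 1 and 2 beside 6.3% of all genes, a count near that share. They were Pcdha5 (-0.51), Pcdha8 (-0.87), Pcdhb5 (-0.79) and Pcdhga9 (-0.57), where a negative value means a lower log2 INTACT minus FANS in batch 1. Between batches 1 and 3, 16 members differed beside 23.3% of all genes, a count not far from that share, 13 with a lower value in batch 1. With quantile normalization 20 members differed between batches 1 and 3 (17 of them lower), beside 22.9% of all genes. At an unadjusted p under 0.05, 17 members were lower and 1 higher in batch 1 than in batch 2, beside 11.5% and 9.54% of all genes, and 21 were lower and 3 higher than in batch 3, beside 17.4% and 17.1%. Among those past the adjusted p between batches 1 and 3, the lowest were Pcdhac1 (-0.90, SE 0.18, adjusted p 0.00030), Pcdhgb8 (-0.88, SE 0.18, adjusted p 0.00036) and Pcdha11 (-0.85, SE 0.20, adjusted p 0.0015). Pcdhac2 (0.37), Pcdhga1 (0.64) and Pcdhgc5 (0.43) were higher in batch 1 than in batch 3. Between batches 2 and 3 no member and no gene passed (limma, 0%), and 4 members were lower and 1 higher at an unadjusted p under 0.05, beside 5.44% and 7.34% of all genes. The authors report that the batches came from separate biological sources. They give batch 1 a higher range of RNA integrity and batches 2 and 3 a shared lower range. RNA integrity, source and batch therefore cannot be told apart here.

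The share of reads outside annotated features separated the techniques in batch 1, as the summed level of the clusters did. In batch 1 this share was 79.4 to 81.7% in FANS and 71.3 to 72.7% in INTACT, and the summed member level was 7510 to 8389 in FANS and 6276 to 7057 in INTACT, neither overlapping. In batch 2 the shares were 79.4 to 81.6% and 77.4 to 78.9%, with summed levels of 6622 to 7854 and 6505 to 7589. There the shares did not overlap while the summed levels did, and the 2 INTACT libraries with the highest shares (78.9 and 78.1%) had the 2 lowest sums (7025 and 6505). In batch 3 the shares were 80.0 to 85.1% and 81.9 to 83.0%, with summed levels of 6444 to 8644 and 6990 to 7328. In 4 of the 6 groups the library with the highest outside share also had the highest summed level. FANS replicates 6 and 7 of batch 3 had outside shares of 83.3 and 85.1% against 80.0 to 82.0% in the other 5. The part of this share in the technique difference was not tested.

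**Figure D4:**
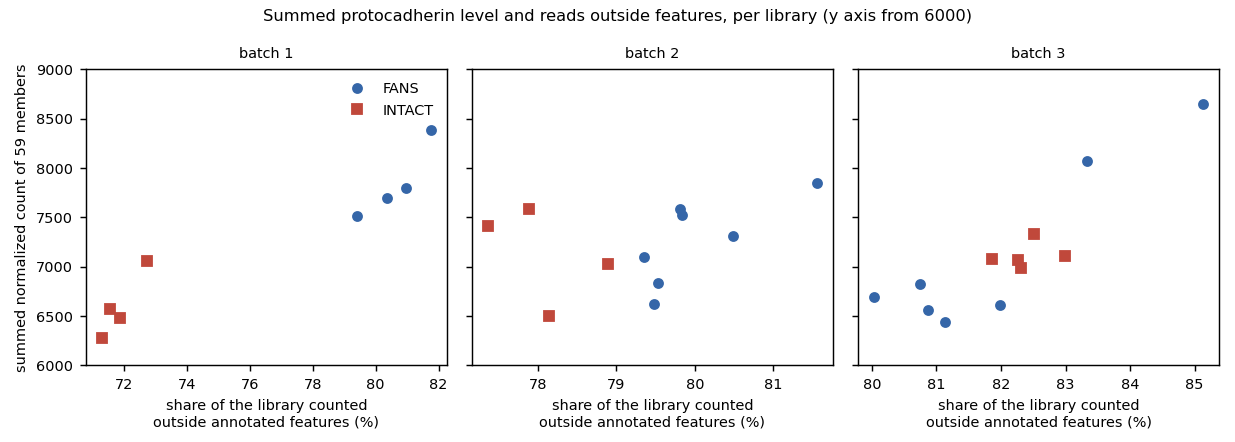
Summed normalized count of the 59 members (y axis, not starting at 0) against the percent of reads counted outside annotated features (x axis), 1 point per library and 1 panel per batch, FANS as blue circles and INTACT as red squares. In batch 1 the techniques separate on both axes, and in batch 3 the FANS libraries at 83.3 and 85.1% have the highest summed levels.

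Genes outside the clusters were taken from fixed lists, and their difference from the members was not tested. Among the 10 delta protocadherins, related adhesion genes outside the clusters, Pcdh8 (0.69), Pcdh18 (1.24) and Pcdh20 (0.59) rose in INTACT by the rule of adjusted p and size, and 7 were higher and 1 lower by the adjusted p alone (median 0.43), beside 18.6% and 17.5% of all genes, all in batch 1. Pcdh20 had 175.8 to 244.4 in FANS and 304.5 to 349.7 in INTACT, without overlap. It lost its call in 3 of the 8 fits that left out 1 library, with a pseudocount of 5 and under both other scalings, and Pcdh8 lost its call without FANS replicate 3 (0.56). Pcdh18 rests on few reads, with means of 7.86 and 16.8, and lost its call in 6 of the 8 fits that left out 1 library. Pcdh9 was the lower one (-0.29). In batches 2 and 3 none of the 10 was called (0 also by the adjusted p alone).

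Of 18 tested genes for chromatin architecture and silencing at the clusters, none was called in batch 1. By the adjusted p alone 2 were higher and 5 lower, beside 18.6% and 17.5% of all genes, so the counts say nothing particular to this list and the genes that follow are examples. Ctcf, whose protein binds the promoters and enhancers of the clusters, had a mean of 563 ± 27.4 (SD, n = 4) in FANS and 490 ± 9.25 (n = 4) in INTACT (log2 difference -0.20, SE 0.06, limma adjusted p 0.012). The cohesin subunit gene Stag1 (-0.28) and the DNA methyltransferase gene Dnmt3a (-0.36) were also lower, and the cohesin subunit gene Rad21 was higher (0.35). Of 20 genes for intracellular and membrane partners, none was called, with 4 higher and 5 lower by the adjusted p alone, beside the same shares. In batches 2 and 3 no gene of either list passed.

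Of 10 tested genes that flank the clusters or lie between them, 9 had a higher mean in INTACT in batch 1, where 49.1% of all genes had a lower one. By the rule 1 was called higher, beside 4.03% of all genes. By the adjusted p alone 5 were higher and 0 lower, beside 18.6% and 17.5% of all genes. Hdac3, a histone deacetylase gene, rose from 791 ± 57.6 to 1257 ± 67.1 (SD, n = 4 each; log2 difference 0.67, SE 0.06, limma adjusted p 2.8e-09). The list's median was 0.34, against -0.30 for the members. Taf7, a single-exon gene between the beta and gamma clusters, was higher by the adjusted p alone (0.29). In batches 2 and 3 no gene of this list was called.

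Markers of some other cell types differed between techniques in batch 1 too. By the same rule of adjusted p and size 4.03% of all genes rose and 3.94% fell in that batch. Of 10 astrocyte markers 5 rose and none fell, and their summed level was 6613 to 7313 in FANS and 8265 to 8458 in INTACT. Of 12 oligodendrocyte lineage markers 7 rose and none fell, with summed levels of 6192 to 7758 and 9963 to 10529. Of 9 tested inhibitory neuron markers 4 rose and 1 fell, with summed levels of 874 to 1071 and 978 to 1192, which overlap. Of 5 tested microglia markers none rose and 1 fell (287 to 379 and 308 to 338), and of 4 tested vascular markers 2 rose and 1 fell (78.5 to 121 and 106 to 132), with overlapping sums for both. Of 10 excitatory neuron markers none was called, with summed levels of 11898 to 12142 and 11325 to 11916. By the adjusted p alone 2 were higher and 3 lower, beside 18.6% and 17.5% of all genes. None of these marker genes was at 0 in every library. In batch 2, where no member was called, 1 astrocyte and 4 oligodendrocyte lineage markers rose in INTACT, beside 0.0941% of all genes. In batch 3 none of the markers was called, beside 0.346% of all genes lower and 0.0139% higher. The part of other cell types in the members' differences was not tested.

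Open chromatin at the member starts was counted as a peak within 1 kb of a start in each list. Peaks were called by the authors per library, with 123596, 128910 and 130088 in the FANS lists and 113224, 99514 and 123895 in the INTACT lists. There are 58 distinct member starts, since Pcdha7-g shares the start window of Pcdha7. Of these 25, 32 and 31 had a peak in the FANS lists and 16, 13 and 17 in the INTACT lists. Among 26122 other genes the shares were 41.1%, 41.8% and 41.7% in FANS and 37.8%, 36.2% and 39% in INTACT. The 3 libraries of a technique are technical replicates of 1 source, and 3 against 3 cannot reach an exact permutation p under 0.1, so no test is given.

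In all 3 FANS lists 24 of the 58 starts had a peak, beside 39.1% of other genes, and in all 3 INTACT lists 10 had one, beside 34.9%. Every start with a peak in all INTACT lists also had one in all FANS lists. For 5 starts a peak was in all FANS lists and in no INTACT list, those of Pcdha4, Pcdha5, Pcdhb12, Pcdhga2 and Pcdhga5. That is 20.8% of the 24, against 4.08% of other genes with a peak in all FANS lists. These 5 peaks were low, and among FANS peaks of mean height (fold enrichment over the local background) under 5 the counts were 5 of 10 members and 25.8% of other genes. At heights from 5 to 10, 6 of 11 members (54.5%) and 80.6% of other genes had a peak in all 6 lists. Members and other genes were both chosen here by their FANS peaks. That choice by itself favours losses in INTACT over losses in FANS.

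The C-type and alternate promoters are given side by side, with no test. All 5 C-type starts and 5 of 53 alternate starts had a peak in all 6 lists, beside 34.3% of other genes. Pcdhac1 had heights of 15.3, 16.2 and 17.1 in FANS and 12.0, 7.79 and 13.6 in INTACT, the tallest of the members and lower in INTACT without overlap. Pcdhgc3 had 12.1, 12.9 and 11.6 in FANS and 11.8, 10.1 and 10.9 in INTACT, and Pcdhgc5 had 10.9, 11.5 and 11.4 against 9.09, 9.67 and 9.88. Pcdhac2 had 8.62, 8.41 and 7.06 in FANS and 6.95, 6.98 and 8.56 in INTACT, and Pcdhgc4 had 3.24, 3.31 and 3.4 against 4.13, 3.62 and 3.12. Both of these pairs overlapped. The median ratio of INTACT to FANS height was 0.89 over the 5 C-type starts and 0.67 over the 5 alternate starts with a peak in all lists, beside 0.86 for other genes.

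**Figure D5:**
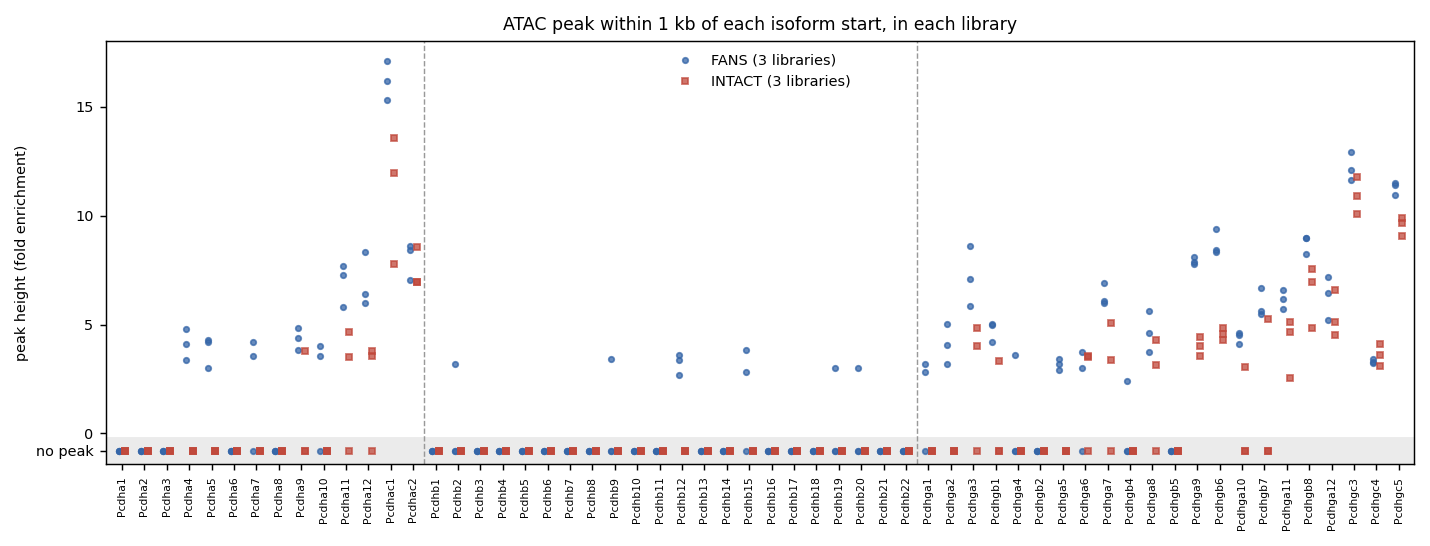
Height of the ATAC-seq peak (y axis, fold enrichment) within 1 kb of each isoform start, in chromosomal order (x axis), with FANS libraries as blue circles, INTACT libraries as red squares and the grey band for no peak. The C-type starts at the ends of the alpha and gamma clusters have a peak in all 6 libraries, and the beta cluster has few peaks, all of them in FANS.

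Alternate starts with peaks lay mostly in the gamma cluster. There 16 of 22 starts, its 3 C-type starts included, had a peak in all FANS lists and 8 in all INTACT lists. Pcdhga9 had heights of 8.12, 7.86 and 7.81 in FANS and 3.56, 4.03 and 4.44 in INTACT. Pcdhgb6 had 8.35, 8.42 and 9.41 against 4.58, 4.30 and 4.86, and Pcdhgb8 had 8.96, 9.0 and 8.23 against 4.84, 7.56 and 6.97. In each of the 3 every INTACT height was under every FANS height. In the alpha cluster 7 of 14 starts had a peak in all FANS lists, but only those of Pcdhac1 and Pcdhac2 had one in all INTACT lists. Pcdha11 had 7.67, 7.30 and 5.81 in FANS, no peak in the first INTACT list and 3.49 and 4.65 in the others. Over all members, with a missing peak taken as height 0, 19 starts had every INTACT value under every FANS value. Among other genes 5610 did so, 21.5% of all 26122. These counts include starts with no INTACT peak, for which no height is known. A peak in any list was held by 35 of the 58 member starts and by 11825 of the other genes. No member start had INTACT higher without overlap, beside 0.965% of other genes.

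In the beta cluster 6 of 22 starts had a peak in any list, all in FANS, beside 45.3% of other genes, and Pcdhb12 alone had one in all 3 FANS lists (2.71, 3.37 and 3.60). Pcdhb17, the highest beta isoform in RNA, had none. RNA without a peak was also seen at Pcdha8, Pcdhgb2 and Pcdhgb5, where no list held a peak within 1 kb. The lists hold only regions past the caller's threshold, so a missing peak sets no level for the signal there. Pcdhac1, with the tallest peak, ranked 36, 37 and 31 of 55 in RNA per kb of countable exon, while Pcdhgc5 and Pcdhac2, the highest in RNA per kb of countable exon, had the third and a middle peak height.

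Outside the member starts the tallest regions lay between the clusters. A region between the alpha and beta clusters at chr18:37217028-37218485 had heights of 20.53, 20.84 and 21.54 in FANS and 18.43, 16.11 and 18.23 in INTACT. A region at chr18:37643827-37644585, at the start of Taf7, had 28.8, 29.4 and 28.8 against 22.6, 21.2 and 26.1. Both were lower in INTACT without overlap. A region at chr18:37655564-37656000, before Pcdhga1, had 7.7, 8.4 and 10.2 in FANS and 9.7, 10.2 and 13.9 in INTACT, which overlapped.

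Within the alpha cluster 5 of 11 regions away from starts were in all 6 lists, and the tallest, in the intron after the first exon of Pcdhac2 at chr18:37172245-37172821, had 11.4, 10.5 and 11.6 in FANS and 8.3, 7.0 and 10.1 in INTACT. Within the gamma cluster 2 of 8 were in all 6 lists. A gamma region at chr18:37786452-37786883, before Pcdhgc3, had 5.0, 6.2 and 5.2 in FANS and no peak in INTACT. The beta cluster, 256.4 kb long, held no region away from starts in any list. In the 100 kb after the gamma cluster 7 of 12 regions were in all 6 lists, the tallest at chr18:37934990-37935908 with 17.9, 16.2 and 17.3 in FANS and 12.5, 14.0 and 14.2 in INTACT.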

How the data were processed

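RNA-seq and ATAC-seq libraries of neocortical sfGFP+ nuclei were grouped by technique and batch as the labels give them. For RNA, the authors used STAR (mm10), collapsed reads with the same molecular identifier, gave unique alignments to genes with HTSeq and normalised with DESeq. The deposited value is thus a signal, a gene's read count over the size factor of its library, set separately in each batch. In each library 100% of values were whole reads once the size factor was recovered, within 0.1 of a read. The authors also aligned ATAC reads with Bowtie2 and called peaks per library with MACS2. The deposited peak lists give a score, the fold enrichment of the summit (a ratio, used here as the height), and its -log10 p-value and q-value. Labels list a FANS replicate 3 and an INTACT replicate 5 in batch 2 that were not analysed here. Read depth of the ATAC-seq is unknown.

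Techniques were compared within each batch with limma 3.58.1 (R 4.3.3; lmFit and trended eBayes). Values entered as log2(normalized count + 1) for genes averaging at least 5, with Benjamini-Hochberg adjustment over all genes tested and calls at an adjusted p under 0.05 and at least 1.5-fold. Fold changes on this scale are understated for low genes. Interaction contrasts used genes tested in all batches. edgeR 4.0.16 (quasi-likelihood) and DESeq2 1.42.0 on the recovered whole reads, another pseudocount (5), other filters, 75th percentile and quantile scaling, a replicate block and leaving out each library were alternatives. The fits were tested on simulated data with a fixed spread. There limma called 16, 24 and 22 of 50 genes changed exactly 1.5-fold in batches 1, 2 and 3. Of 50 genes changed 2-fold it called 49, 50 and 50. Batches were scaled separately, so levels are compared within a batch and set side by side across batches. The authors report that each batch came from its own biological source, so p-values measure the spread between libraries of 1 source, which may be technical.

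Levels were divided by the exon bases that belong to 1 gene of the tables in RefSeq (mm10). Of the 24421 genes, 23204 matched RefSeq by symbol and 1076 by an older symbol. Named genes are the members called in any batch, the 3 highest per cluster, the 5 C-type isoforms, and called genes of the pathway lists; members described under ATAC-seq, and others named as examples, were chosen after their values were seen. The members and lists were chosen with earlier results of these data known. Intervals for ATAC heights were not computed.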

Additional observations from a re-analysis of the deposited data

Results flagged for a closer look

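Single libraries stood apart from the rest of their group in 7 of 114 groups of named genes checked with Dixon's test at the 95% level, which chance flags in about 1 group in 20. Of the members, Pcdhb20 had 176.21 normalized counts in FANS replicate 1 of batch 1 (221.60 to 228.06 in the others), Pcdhac1 had 46.66 in INTACT replicate 2 of batch 1 (57.78 to 58.83) and Pcdha5 had 155.38 in INTACT replicate 3 of batch 2 (145.19 to 145.82). In batch 3 Pcdhac1 had 131.2 in FANS replicate 7 (79.16 to 100.82) and Pcdhgb8 had 177.58 in INTACT replicate 5 (158.08 to 163.49). Outside the clusters, Pcdh18 had 19.87 in FANS replicate 4 of batch 1 (2.57 to 4.90) and Pcdh8 had 23.68 in INTACT replicate 1 of batch 3 (40.03 to 46.27).

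The technique difference of 11 results differed between batches in the interaction test, which 6.3% of all genes passed for batch 1 against 2 and 23.3% for batch 1 against 3. Over all 55 members tested the counts, 4 and 16, were not far from these shares. Against batch 2, the log2 difference in batch 1 was lower for Pcdha5 (-0.51, adjusted p 0.031) and Pcdha8 (-0.87, adjusted p 0.0077). Against batch 3 it was lower for Pcdha8 (-0.81), Pcdha11 (-0.85), Pcdha12 (-0.47), Pcdhac1 (-0.90), Pcdhb16 (-0.45), Pcdhga8 (-0.55) and Pcdhgb8 (-0.88), with adjusted p from 0.00030 to 0.014, and higher for Pcdhac2 (0.37, adjusted p 0.031) and Pcdhgc5 (0.43, adjusted p 0.024). All are limma values adjusted over 14332 genes.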

How the results depend on the processing

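In batch 1 the count of 4 members called became 26 by the adjusted p alone and ranged from 4 to 7 when 1 library was left out (7 without FANS replicate 1 and without INTACT replicate 1); Pcdha8, Pcdha11, Pcdhac1 and Pcdhgb8 were called in all 8 of those fits. In batch 2 the count of 0 became 1 by the adjusted p alone, and leaving out 1 library gave 0 to 1, the 1 being Pcdha11 without INTACT replicate 3 (log2 difference -0.59). In batch 3 it was 0 by the rule of adjusted p and size in every alternative run, while by the adjusted p alone it was 0 as reported, 4 without FANS replicates 6 and 7 (beside 2.27% of all genes higher) and 6 with the replicate block (beside 3.84%), in both cases all higher in INTACT. The replicate block keeps only numbers found in both techniques, so in batch 3 it too leaves out FANS replicates 6 and 7. These 2 alternatives therefore rest on the same libraries. Same-numbered libraries had correlations of deviations from -0.16 to 0.19, so the numbers were not taken as pairs. The replicate block gave 4, 0 and 0 members called in the 3 batches, while the same libraries of batch 2 with no replicate block gave 1 (Pcdha11). Over all genes, batch 2 had 14 higher and 5 lower calls as reported, 6 and 2 by DESeq2 and 4 and 0 with the block, and batch 3 had 2 and 50 as reported and 28 and 84 with the block (17 and 72 in the same libraries without it). Outside the clusters, Pcdh18 lost its call in batch 1 without a filter and by DESeq2, Pcdh20 in 3 of the 8 fits without 1 library, with a pseudocount of 5 and under both other scalings (0.57 to 0.58), and Pcdh8 without FANS replicate 3 (0.56). Quantile normalization raised the members that differed between batches 1 and 3 from 16 to 20 of 55, with 23.3% and 22.9% of all genes. Members with a peak in all FANS lists numbered 19 to 28 and in all INTACT lists 8 to 13 over the windows, thresholds and lists tried. Depth limits single isoforms, since the 4 called members rest on 55 to 167 reads per library.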
